A study of Mus musculus with 12 samples.

Results

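Messenger RNA of 6 costimulatory receptors of T cells was followed in mouse CD8+ T cells: Tnfrsf9 (4-1BB), Tnfrsf4 (OX40), Tnfrsf18 (GITR), Icos, Cd28 and Cd27. They are the 6 rows with these symbols among 13780 genes in the count table, and all 6 passed the filter on low counts. CD8+ T cells were taken from spleens of C57BL/6J mice aged 8 to 12 weeks, and mRNA was measured by RNA-seq. Naive cells were lysed directly after purification on magnetic beads. Activated cells were cultured for 72 h with 10 U/ml of IL-2 and with beads that carry antibodies to CD3 and CD28, either in plain media or with 40 mM sodium lactate, the salt of lactic acid that leaves the pH unchanged. There were 4 libraries in each of the 3 groups, from separate mice within a group. All mice were wild type. The media control held no added sodium, so lactate, sodium and osmolality cannot be told apart in these libraries. Activated cells came from 5 mice. The same donor tags recur in low and high library numbers, and the labels do not say how to read them. Read separately for low and high numbers they give 5 mice, 3 of them with both treatments, and values called those of a mouse rest on this reading.

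A T cell needs a second signal beside its antigen receptor, and costimulatory receptors deliver it. CD28 is present before activation, binds CD80 and CD86 on antigen-presenting cells and is engaged directly by the antibody beads used here. Its relative ICOS appears after activation, binds ICOS ligand and signals through phosphoinositide 3-kinase. 4-1BB, OX40, GITR and CD27 belong to the tumour necrosis factor receptor family, lack enzymatic activity and recruit TRAF adaptors that lead to NF-kB. CD27 is carried by resting T cells and is lost as cells differentiate into effectors, whereas 4-1BB and OX40 are known as receptors that activation induces.

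Library totals ran from 14726904 to 21478137 counts, and values are given as CPM (counts scaled to a fixed library size, after TMM normalization). The library numbers in the labels were split into a low run of 8 libraries and a high run of 4, and differences were also taken within each run. The split is a reading of the numbers, and the labels do not name runs. The low run held 3 naive, 3 media and 2 lactate libraries, and the high run 1, 1 and 2. High-run differences from naive cells therefore rest on 1 naive library, and those of media on 1 media library. The markers of CD8 T cells, Cd8a and Cd8b1, were present in every library, with a summed level of at least 1393 TPM. TPM are raw counts divided by gene length and scaled to a fixed sum per library, without TMM. The naive libraries also held markers of other cells. The summed B cell markers (7 of 7 genes measured) were at 690 to 1627 TPM in naive libraries, against 18.1 to 30.4 in media and 11.0 to 16.2 with lactate. Myeloid markers (9 of 9 measured) were at 1134 to 2368, 194 to 248 and 228 to 254 TPM, NK cell markers (4 of 4) at 370 to 1208, 2.07 to 3.10 and 2.60 to 9.28, and red cell markers (4 of 5) at 379 to 13602, 0 to 1.09 and 0.264 to 8.16. In the activated libraries the myeloid sum was mostly Cst3 (158 to 231 TPM) and Cd68 (12.8 to 47.4 TPM), while Xcr1 was at 0 in all 8 and Ncr1, Lyz2 and Csf1r were at or near 0. The part of these other cells in the differences from naive cells was not tested, and in bulk RNA fewer cells of a type and less RNA per cell cannot be told apart.

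The receptors form pairs of neighbours in the genome (GRCm38, GENCODE M21). Cd28 (chromosome 1, 60716800 to 60773359, plus strand) and Icos (chromosome 1, 60977927 to 61000320, plus strand) are 204567 bp apart, with Ctla4 as the only protein-coding gene between them. Tnfrsf4 (chromosome 4, 156013843 to 156016612) and Tnfrsf18 (chromosome 4, 156026164 to 156028895) lie on the plus strand with a gap of 9551 bp and no protein-coding gene between them. Tnfrsf9 (chromosome 4, 150914562 to 150946102, plus strand) is on the same chromosome, with 83 protein-coding genes between it and Tnfrsf4. Cd27 (chromosome 6, 125232622 to 125237010) is on the minus strand. Exons of Tnfrsf18 overlap Gm16008 on the opposite strand over 27.2% of their length, and Gm16008 was listed at 0 to 47 counts per library. Whether counting used the strand is not given, so these counts do not show what the overlap did to the counts of Tnfrsf18. Exons of Cd27 share 5.54% of their length with Mir8113.

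RefSeq promoters were matched for Tnfrsf9 (with 2 start sites), Tnfrsf4, Tnfrsf18 and Cd27, which makes 5 windows for 4 of the 6 receptors. In the 250 bases upstream of each start, both strands were searched for letters bound by factors that activation or low oxygen brings to the nucleus: AP-1 (TGANTCA), NFAT (GGAAA), the hypoxia response core (ACGTG) and NF-kB. A match describes the letters and does not show a bound site. NFAT letters were in all 5 windows and in 55.6% of the 32851 promoters of the annotation. NF-kB letters were in the second Tnfrsf9 window, which also held AP-1 letters 15 to 9 bases upstream of the start, and were found in 3.9% of all promoters, against 6.75% for AP-1. These NF-kB and AP-1 letters lie in 81 bases of the window that are exon in GENCODE M21. Hypoxia response letters were in the Tnfrsf4 window and in 16.6% of all promoters. That window ends upstream of the GENCODE start of Tnfrsf4 given above, and the bases after its RefSeq start were not found in a GENCODE transcript of the gene. Stretches of the 3 receptor genes that rose most on activation are shown 5′ to 3′ on the plus strand of GRCm38.p6. Capitals mark the NF-kB letters of Tnfrsf9 (chr4:150927951-150927980), which contain the NFAT letters on the opposite strand (TTTCC), the hypoxia response letters of Tnfrsf4 (chr4:156013611-156013694) and the NFAT letters of Tnfrsf18 (chr4:156026072-156026163).
Tnfrsf9: cagctGGGGATTTCCCaggaggccctgctc
Tnfrsf4: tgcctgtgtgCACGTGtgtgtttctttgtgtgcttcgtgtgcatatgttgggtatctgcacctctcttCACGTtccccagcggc
Tnfrsf18: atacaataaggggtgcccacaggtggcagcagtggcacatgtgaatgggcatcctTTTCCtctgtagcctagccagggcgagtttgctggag

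Activation in plain media was first compared with naive cells, to see which receptors TCR and CD28 triggering changes. Tnfrsf9, Tnfrsf4, Tnfrsf18, Icos and Cd28 rose, and Cd27 did not pass the test. Thus 5 of 6 receptors were called, all higher, where 57.5% of the 13767 tested genes were called, 28.5% higher and 29% lower (edgeR quasi-likelihood test, adjusted p of at most 0.01). Groups did not overlap for these 5 receptors, nor for 61.2% of tested genes (30.7% higher and 30.5% lower). Without naive replicate 4 the count was again 5. Among naive libraries this one was highest for each of these 5 receptors and had the lowest sum of CD8 markers (1393 TPM, against 2476 to 3592 in the other naive libraries).

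Tnfrsf9 codes for 4-1BB, which sustains the survival of activated CD8+ T cells. Naive libraries 1 to 4 held 5.97, 6.55, 17.0 and 18.8 CPM of Tnfrsf9, and media libraries 1 to 4 held 975, 766, 952 and 836 CPM. The lowest media library lay far above the highest naive library. The model gave a 72.9-fold increase (log2 6.19, SE 0.38, adjusted p = 3.61e-08 from edgeR). Within the low and the high run the log2 difference was 6.66 and 5.47.

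Tnfrsf4 codes for OX40, a survival receptor best known on CD4+ T cells. It was at 4.06, 5.65, 11.3 and 15.8 CPM in naive cells and at 281, 174, 311 and 232 CPM in media, without overlap. The increase was 27.1-fold (log2 4.76, SE 0.37, adjusted p = 2.96e-07 from edgeR), with log2 differences of 5.26 and 3.87 within the low and the high run. The summed markers of CD4 and regulatory T cells (5 of 5 measured) were at 63.3 to 116 TPM in naive libraries and 68.0 to 94.1 TPM in media. Within this list Cd4 (9.39 to 23.3 and 0.205 to 0.340 TPM) and Foxp3 (0.680 to 3.19 and 0.0418 to 0.171 TPM) were lower in media, while Zbtb7b (8.51 to 17.0 and 26.8 to 35.1 TPM) and Ikzf2 (9.06 to 15.3 and 19.9 to 56.7 TPM) were higher. Cd40lg, at 9.75 to 62.9 and 9.33 to 15.5 TPM, overlapped. The part of such cells in the rise of Tnfrsf4 was not tested.

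Tnfrsf18 codes for GITR, which regulatory T cells carry at rest and CD8+ T cells gain on activation. Its naive values were 25.6, 27.1, 31.0 and 58.1 CPM, and its media values were 362, 279, 445 and 319 CPM. All media libraries were above all naive libraries, and the increase was 9.90-fold (log2 3.31, SE 0.27, adjusted p = 4.44e-07 from edgeR). Within runs the log2 difference was 3.67 (low) and 2.45 (high).

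Icos and Cd28 rose by less than these 3. Icos was at 33.0, 34.5, 36.9 and 89.3 CPM in naive libraries and at 134, 126, 122 and 229.7 CPM in media libraries. Replicate 4 was the highest in each group, and in both cases it belongs to the high run. The increase was 3.16-fold (log2 1.66, SE 0.34, adjusted p = 0.000745 from edgeR), with log2 differences of 1.87 and 1.36 within the low and the high run. Without naive replicate 4 it was log2 2.13, and without media replicate 4 it was log2 1.33. Cd28 was at 157, 131, 144 and 241 CPM in naive cells and at 478, 653, 539.7 and 493 CPM in media. The groups did not overlap, and the increase was 3.22-fold (log2 1.69, SE 0.18, adjusted p = 3.42e-06 from edgeR). Low-run libraries gave log2 1.94, and the 1 media and 1 naive library of the high run gave log2 1.03.

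Cd27 was already abundant before activation. Naive libraries held 142, 125, 173 and 127 CPM and media libraries 124, 167, 109 and 136 CPM, so the groups overlapped. The log2 difference was -0.08 (SE 0.14, 95% interval -0.39 to 0.23, adjusted p = 0.633 from edgeR), an interval that leaves room for a modest change in either direction.

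**Figure D1:**
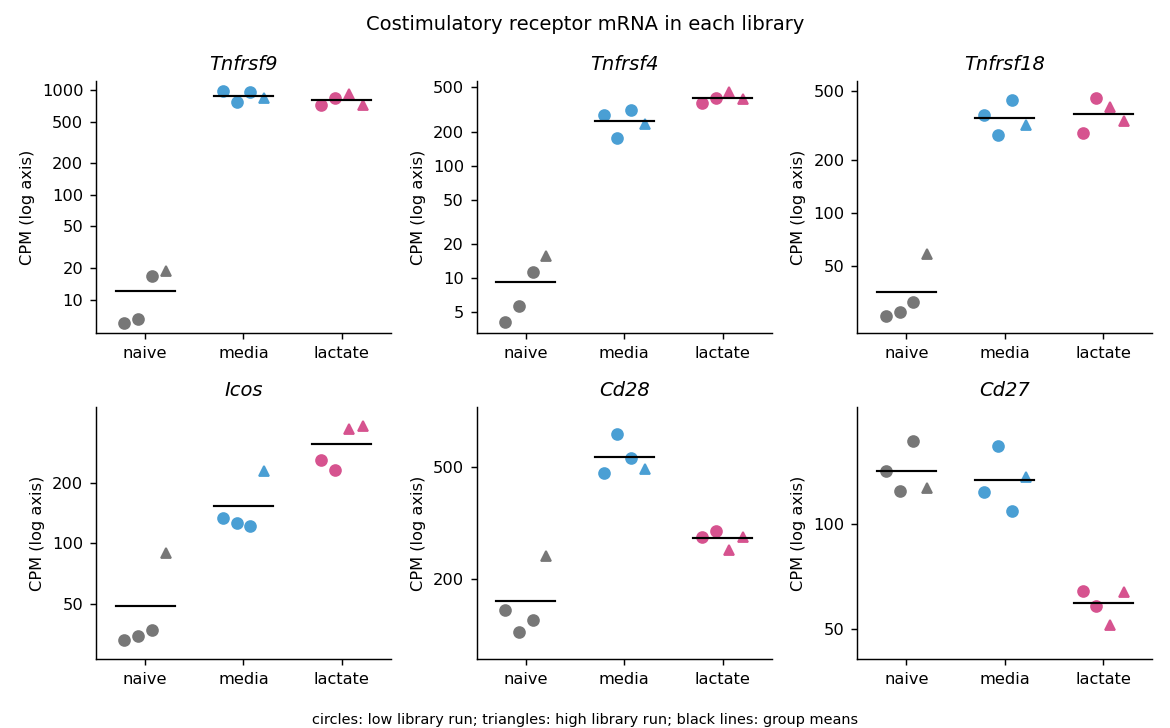
CPM of each receptor gene (log axis, a separate scale in each panel) in the 4 naive, 4 media and 4 lactate libraries, with circles for the low library run, triangles for the high run and a black line at the group mean. Tnfrsf9, Tnfrsf4 and Tnfrsf18 stood at or above 174 CPM in every activated library, whereas Cd27 was lowest in the lactate libraries, at 51.2 to 64.4 CPM.

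The comparison of lactate with media asks how sodium lactate during activation changed the receptors. Cd28 and Cd27 were lower with lactate, by 1.94-fold and 2.25-fold. Icos and Tnfrsf4 had higher values in all 4 lactate libraries than in any media library, but did not pass the test of the 12-library model, and both passed when the media and lactate libraries were fitted without the naive libraries, with the mouse as a block or without one. Tnfrsf9 and Tnfrsf18 did not pass in the model. By edgeR 2 of 6 receptors were called, both lower, where 25.1% of tested genes were called (13.9% higher and 11.1% lower). The count of receptors called higher was 0, with 1 of them (Icos) at an unadjusted p under 0.05, and DESeq2 called that 1. The groups did not overlap for 4 of 6 receptors, 2 in each direction, and for 44.7% of tested genes (23.3% higher and 21.5% lower). This comparison and the comparison of media with naive cells share the media libraries.

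Cd28 was at 478, 653, 539.7 and 493 CPM in media and at 283, 297, 255 and 283 CPM with lactate. The highest lactate library was well below the lowest media library. The log2 difference was -0.95 (SE 0.17, 95% interval -1.33 to -0.58, adjusted p = 0.00113 from edgeR). Low-run and high-run libraries gave -0.93 and -0.88, and in the 3 mice with both treatments it was -0.76, -0.86 and -0.80.

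Cd27 fell from 124, 167, 109 and 136 CPM in media to 64.4, 58.3, 51.2 and 63.9 CPM with lactate. Every lactate library was lower than every media library and every naive library. The log2 difference from media was -1.17 (SE 0.15, 95% interval -1.49 to -0.85, adjusted p = 0.00013 from edgeR), and it was -1.10 and -1.25 in the low and the high run. In the 3 mice it was -0.94, -0.90 and -1.09. The summed markers of T cells (Cd3e, Cd3d, Cd3g and Trac, 4 of 4 measured) were also lower with lactate, at 1854 to 2261 TPM against 3111 to 3843 in media, while the sum of Cd8a and Cd8b1 was at 1689 to 2099 against 1685 to 2161. What the shift in the T cell markers shares with that of Cd28 and Cd27 was not tested.

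Icos was at 134, 126, 122 and 229.7 CPM in media and at 260.2, 234, 371 and 386 CPM with lactate. The lowest lactate library was just above the highest media library, and the high-run libraries were the highest of each group. The high run held 2 lactate libraries and 1 media library, so the run was not balanced between the groups. The log2 difference was 1.03 (SE 0.33, 95% interval 0.32 to 1.75), and the adjusted p of 0.0248 from edgeR missed the threshold of 0.01, with an exact permutation p of 0.0286, the smallest that 4 against 4 libraries allow. Without the naive libraries it passed both with no block (log2 1.04, adjusted p = 0.00334) and with the mouse as a block (log2 0.88, adjusted p = 0.000493 from edgeR). It also passed when only naive replicate 4 was left out (log2 1.03, adjusted p = 0.00205 from edgeR). The 3 mice showed 0.96, 0.93 and 0.75, and low-run and high-run libraries gave 0.95 and 0.72. With the library run as a term, the log2 difference of Icos was 0.83 (adjusted p = 0.000572 from edgeR). Icos passed under 8 of 27 alternatives, with adjusted p values between 0.000493 and 1, the latter in a test against a 2-fold change. These 8 include the looser threshold of 0.05, where the adjusted p from edgeR stayed at 0.0248.

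Tnfrsf4 had 281, 174, 311 and 232 CPM in media and 358, 400.3, 452 and 392 CPM with lactate, without overlap. The log2 difference of 0.68 (SE 0.32, 95% interval -0.01 to 1.37) did not pass in the model (adjusted p = 0.106 from edgeR, exact permutation p = 0.0286). Without the naive libraries it passed both with no block (log2 0.68, adjusted p = 0.00551) and with the mouse as a block (log2 0.49, adjusted p = 0.00775 from edgeR), but not with the title number as a block over all 12 libraries (adjusted p = 0.0791). The 3 mice showed 0.35, 0.36 and 0.75. Within runs it was 0.61 and 0.86. Tnfrsf4 passed under 2 of the 27 alternatives, with adjusted p values between 0.00551 and 1.

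Tnfrsf9 was at 975, 766, 952 and 836 CPM in media and at 724, 844, 909 and 714 CPM with lactate, and the groups overlapped. The log2 difference was -0.15 (SE 0.30, 95% interval -0.79 to 0.50, adjusted p = 0.737 from edgeR), and in the 3 mice it was -0.43, -0.17 and -0.23. Tnfrsf18 was at 362, 279, 445 and 319 CPM in media and at 286, 454, 401 and 334 CPM with lactate, which also overlap. Its log2 difference of 0.07 (SE 0.25, 95% interval -0.47 to 0.61, adjusted p = 0.855 from edgeR) changed sign under several alternatives, and the 3 mice showed -0.34, 0.03 and 0.07. For both genes the interval of this model includes changes of either sign, so the data do not show that the level was the same. Without the naive libraries and with no block, Tnfrsf9 differed by log2 -0.14 (adjusted p = 0.313 from edgeR). With the mouse as a block it differed by log2 -0.27 (adjusted p = 0.0426 from edgeR), which missed the threshold of 0.01. Tnfrsf18 differed by log2 -0.075 with that block (adjusted p = 0.593 from edgeR).

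**Figure D2:**
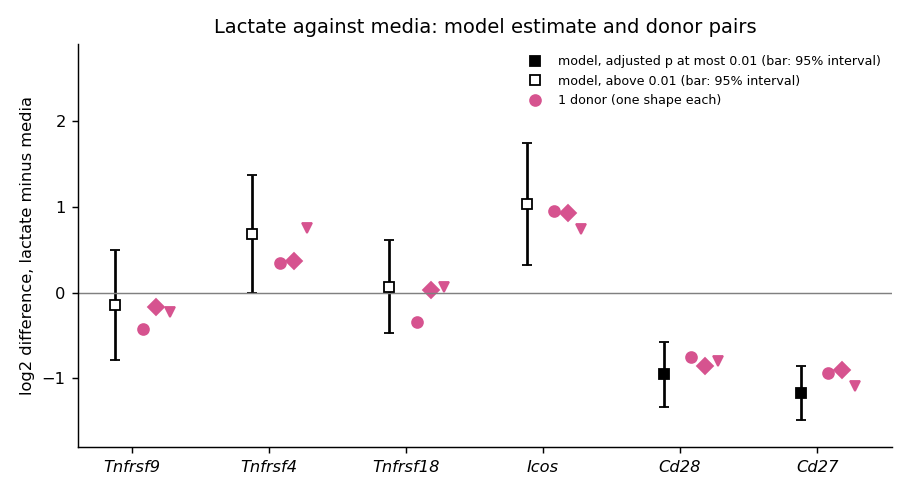
Log2 difference of lactate minus media for each receptor, as the estimate of the 12-library model with its 95% interval (squares, filled at an adjusted p of at most 0.01) and in each of the 3 mice with both treatments (coloured symbols, 1 shape per mouse). The mice lay between -1.09 and -0.75 for Cd28 and Cd27, between 0.75 and 0.96 for Icos, and on both sides of 0 for Tnfrsf18.

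Lactate-treated cells were also set against naive cells, with which the media comparison shares its naive libraries. All 6 receptors were called, 5 higher and Cd27 lower, where 65% of tested genes were called (33% higher and 32% lower). The groups overlapped for none of the 6, and 67.8% of tested genes did not overlap (35% higher and 32.8% lower). Without naive replicate 4 the same numbers were called. Tnfrsf9 was 65.9-fold higher (adjusted p = 3.18e-08), Tnfrsf4 43.4-fold (adjusted p = 9.00e-08), Tnfrsf18 10.4-fold (adjusted p = 2.73e-07) and Icos 6.46-fold (adjusted p = 1.54e-05), all from edgeR. Cd28 was 1.66-fold higher (log2 0.73, SE 0.17, adjusted p = 0.00196 from edgeR), but low-run and high-run libraries gave log2 1.02 and 0.15, and it missed the threshold without naive replicate 2 (log2 0.54, adjusted p = 0.0144) or naive replicate 3 (log2 0.58, adjusted p = 0.0149). Cd27 was 2.38-fold lower (log2 -1.25, adjusted p = 6.47e-06 from edgeR), with -1.24 and -1.15 in the runs.

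Levels of different receptors were compared per summed exon length of the gene, in TPM. The order between genes depends on these lengths, such as 3430 bp for Icos and 6122 bp for Cd28. In CPM, Cd28 had the highest naive mean (168, against 142 for Cd27). Cd27 had the lowest CPM mean in media (134, against 153 for Icos). In naive cells Cd27 led with 208 ± 33.2 TPM (SD, n = 4), and its range did not overlap that of the next gene. Cd28 (94.4 ± 31.7), Tnfrsf18 (80.2 ± 37.6), Icos (48.8 ± 29.4), Tnfrsf4 (23.3 ± 14.3) and Tnfrsf9 (15.3 ± 8.91 TPM) followed, each overlapping its neighbour in this order. Cd28 was above Tnfrsf18, and each later gene above the next, in 4 of 4 naive libraries.

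The order turned over in media. Tnfrsf9 reached 1125 ± 146 TPM, ahead of Tnfrsf18 (800.2 ± 173) and Tnfrsf4 (636 ± 161), and these 3 neighbours overlapped in range. Cd28 (307 ± 48.6) stood apart from the genes on either side, and Cd27 (199 ± 36.9) overlapped Icos (153 ± 45.3), which was last. Cd27, the leading receptor of naive cells in TPM, was thus near the end of the order, although the test of its own change was not passed.

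With lactate, Tnfrsf4 (924 ± 63.3 TPM) and Tnfrsf9 (924 ± 102 TPM) had the same mean, and Tnfrsf4 was the higher of them in 1 of 4 libraries. Tnfrsf18 (763 ± 153) overlapped Tnfrsf9. Icos (286 ± 59.0), Cd28 (144 ± 14.0) and Cd27 (80.8 ± 10.4) followed, each apart from its neighbours, so that Icos, last in media, was now above Cd28 and Cd27. In CPM, Cd28 was still above Icos in lactate replicate 1 (283 against 260.2) and replicate 2 (297 against 234). The sum over the 6 genes was 469.8 ± 120 TPM in naive cells, 3220.4 ± 398 in media and 3121 ± 268 with lactate (SD, n = 4). TPM carry no TMM scaling, so differences between groups are not those seen in CPM. Tnfrsf18 had means of 351 CPM in media and 369 CPM with lactate, but 800.2 and 763 TPM.

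**Figure D3:**
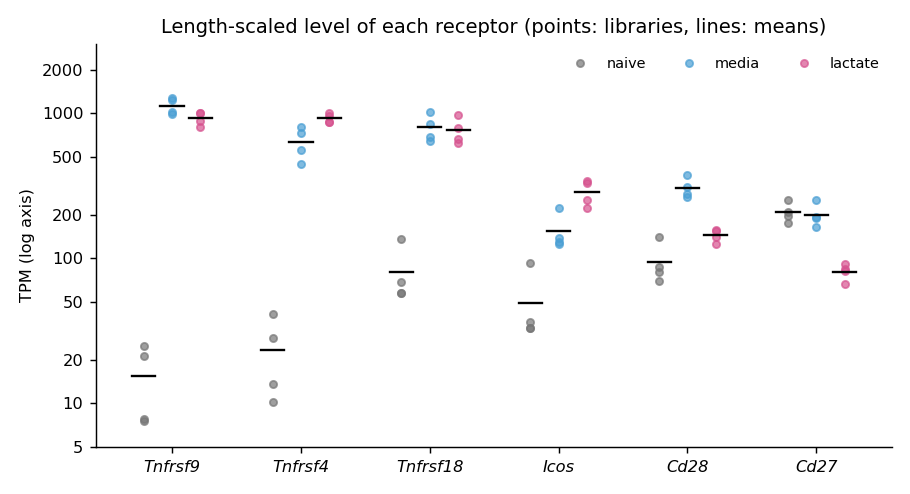
TPM (log axis) of the 6 receptor genes in the 12 libraries, with naive in grey, media in blue, lactate in pink and a black line at each mean of 4 libraries. Naive means ran from 15.3 TPM for Tnfrsf9 to 208 TPM for Cd27, media means from 153 for Icos to 1125 for Tnfrsf9, and lactate means from 80.8 for Cd27 to 924 for Tnfrsf4.

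Ratios were also taken between the neighbouring genes of each pair. Within a library, the ratio of Icos to Cd28 in TPM was 0.376 to 0.661 in naive cells (mean 0.491), 0.344 to 0.832 in media (mean 0.521) and 1.41 to 2.60 with lactate (mean 2.02). Naive and media libraries overlapped, and every lactate library was above them. The ratio of Tnfrsf4 to Tnfrsf18 was 0.177 to 0.408 in naive cells, 0.697 to 0.868 in media and 0.984 to 1.40 with lactate, with no overlap between the 3 groups. These ratios were chosen after the values had been seen and are given as a description.

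**Figure D4:**
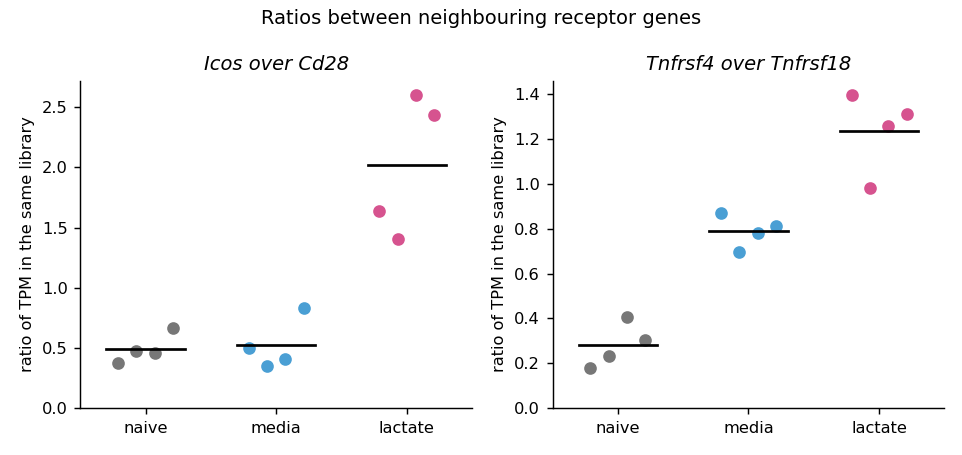
Ratio of TPM of Icos to Cd28 (left) and of Tnfrsf4 to Tnfrsf18 (right) within each library, with a black line at the mean of the 4 libraries of a group. In TPM, Icos exceeded Cd28 in the lactate libraries only (1.41 to 2.60), and the ratio of Tnfrsf4 to Tnfrsf18 separated all 3 groups.

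The 6 receptors were placed beside 62 further genes of costimulation. With lactate against media, 7 of the 62 were called higher and 13 lower, where 13.9% of all tested genes were called higher and 11.1% lower, with a median log2 difference of -0.17, against -0.0016 over all tested genes. In place of the 20 calls in all, 12 were made without media replicate 2, 11 without lactate replicate 3 and 13 without lactate replicate 4, each time with more genes lower than higher.

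Ligands are made mainly by antigen-presenting cells, and 5 of 7 were in the table. Tnfsf9, which binds 4-1BB, had a mean of 6.70 CPM in media and 7.67 CPM with lactate, and Tnfsf4, which binds OX40, had 2.17 and 1.75 CPM. Icosl had 2.79 and 4.70 CPM and Cd80, a ligand of CD28, 34.0 and 35.2 CPM, and none of these 4 passed the test. Cd86, the other CD28 ligand, fell from 1.81 to 0.539 CPM (log2 -1.75, SE 0.44, adjusted p = 0.00744 from edgeR). In naive libraries, with their B cell and myeloid markers, Cd86 was at 81.5 CPM and Icosl at 59.4 CPM, while Cd80 was at 6.73 CPM and rose on activation in media (log2 2.34, adjusted p = 1.3e-05 from edgeR).

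Of 15 other costimulatory receptors, 5 were higher with lactate and 4 lower, beside 13.9% and 11.1% of all tested genes. Tnfrsf8 (CD30), a relative of 4-1BB and OX40, was at 6.38, 1.69, 6.47 and 2.13 CPM in media and at 57.2, 54.7, 41.4 and 29.1 CPM with lactate. Naive libraries held 0.336 to 1.13 CPM, and the lowest lactate library was above the highest media library. The increase with lactate was 10.9-fold (log2 3.44, SE 0.46, adjusted p = 0.000175 from edgeR). Crtam, an adhesion receptor of activated CD8+ T cells, rose from 27.4 to 57.2 CPM (log2 1.06, adjusted p = 0.000385) and Slamf1, a self-binding receptor of lymphocytes, from 32.6 to 55.0 CPM (log2 0.75, adjusted p = 0.00564). Tnfrsf14 (HVEM), the receptor for LIGHT and BTLA, fell from 21.3 to 8.60 CPM (log2 -1.30, adjusted p = 0.000377), Slamf6 from 81.2 to 33.9 CPM (log2 -1.26, adjusted p = 0.00151) and Dpp4 (CD26) from 172 to 72.5 CPM (log2 -1.25, adjusted p = 6.7e-05).

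The TRAF adaptors and NF-kB factors serve 4-1BB, OX40, GITR and CD27. Of 20 genes, 1 was higher with lactate and 2 were lower, so 3 were called, where 25.1% of all tested genes were (13.9% higher and 11.1% lower). Chuk, the kinase IKK-alpha, rose from 66.6 to 91.4 CPM (log2 0.46, adjusted p = 0.00344). Birc2, a ubiquitin ligase bound to TRAF2, fell from 146 to 54.9 CPM (log2 -1.41, adjusted p = 5.97e-05), and Tnfaip3 (A20), which switches NF-kB signalling off, from 169.6 to 83.7 CPM (log2 -1.02, adjusted p = 0.000516). Tnfaip3 had already been lower in media than in naive cells, where it was at 1030 CPM (log2 -2.60, adjusted p = 6.63e-08).

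Of 17 genes that act behind the CD28 and ICOS tails, 1 rose and 5 fell with lactate, where 13.9% of all tested genes were called higher and 11.1% lower. Akt1, the kinase downstream of phosphoinositide 3-kinase, rose from 158 to 252 CPM (log2 0.67, adjusted p = 0.000128). Pik3r1, the regulatory subunit of that kinase, fell from 209.6 to 93.9 CPM (log2 -1.16, adjusted p = 9.06e-05), and Carmil2, a CD28 partner, from 180.5 to 96.8 CPM (log2 -0.90, adjusted p = 0.000189). These adjusted p values are from edgeR.

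Roquin and regnase proteins bind and destabilise mRNAs that include Icos and Tnfrsf4. Rc3h2 (roquin-2) was 2.01-fold lower with lactate, at 64.1 and 31.9 CPM (SE 0.23 on the log2 scale, adjusted p = 0.00421 from edgeR), although media libraries, at 37.5 to 86.8 CPM, overlapped lactate libraries, at 25.2 to 40.6 CPM. Rc3h1 (roquin-1) had means of 69.9 and 52.2 CPM (log2 -0.42, adjusted p = 0.0478 from edgeR). Zc3h12a (regnase-1) had 19.8 and 21.6 CPM, Zc3h12d 161 and 151 CPM and Zc3h12c 0.123 and 0.0674 CPM, and these 4 genes did not pass the test.

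**Figure D5:**
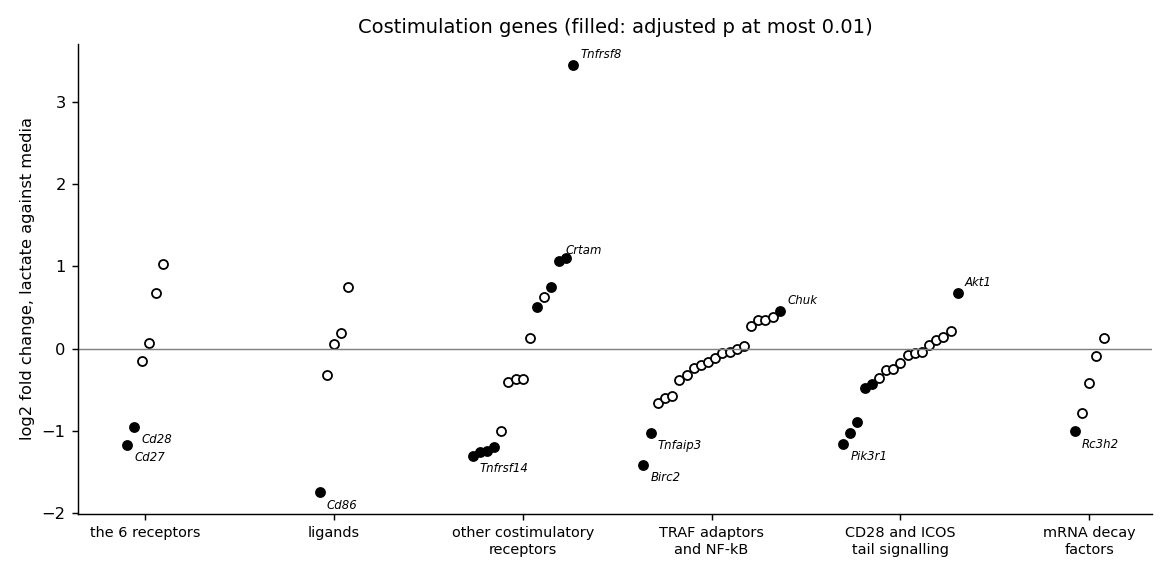
Log2 fold change of lactate against media for the 6 receptors and 62 further costimulation genes by role, each point a gene and filled points those with an adjusted p of at most 0.01. Tnfrsf8 stood highest at 3.44, and 13 of the 62 genes were called lower against 7 higher (11.1% and 13.9% of all tested genes).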

How the data were processed

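RNA was sequenced from 12 libraries. By their methods and the labels, the authors demultiplexed reads with bcl2fastq 2.20.0.422, aligned them to GRCm38 and removed PCR duplicates with STAR 2.7.5b, and counted uniquely mapped reads in exons of Ensembl release 99 with featureCounts 1.5.1. The deposited values are raw counts per gene. Whether counting used the strand is not given in the sources used here.

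With edgeR 4.0.16 (R 4.3.3), 13767 of 13780 genes reached 1 CPM in 3 libraries, were kept and scaled by TMM. A quasi-likelihood model of the 3 groups, without a block, was fitted to the 12 libraries together. Tests were two-sided, p was adjusted over the 13767 genes by Benjamini-Hochberg, and calls needed an adjusted p of at most 0.01. The procedure was tested on simulated counts. SE is the log2 fold change over the square root of F. TPM rests on raw counts and the deposited gene lengths, without TMM. For the receptors an exact two-sided permutation test over 70 arrangements was added. The members and gene lists were chosen with earlier results of these data known. Beside the 6 receptors, named genes are all listed ligands and decay factors and, from 3 longer lists, up to 3 largest called increases and decreases with lactate at 5 CPM or more. Some genes that these rules select are left out. Alternatives were DESeq2 1.42.0, limma voom (limma 3.58.1), edgeR's likelihood ratio test, other scalings and filters, the 2 groups alone, blocks, a run term, thinned counts, other thresholds and leaving out each library.

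Donor tags were read within each library run. Deviations of the media and the lactate library of a mouse from their group means correlated at 0.374, 0.211 and 0.553 across genes. For libraries that share a title number the values were 0.374, 0.297, 0.0038 and 0.553. Title numbers 1 and 4 are library pairs already among the mice, and the libraries of title number 3 come from different runs. These values therefore do not settle how the donor tags are to be read. Mice are the replicates within a group.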

Additional observations from a re-analysis of the deposited data

Results flagged for a closer look

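In 2 groups 1 library stood far from the other 3 for Icos, by Dixon's ratio of the gap to the group's range, whose critical value for 4 libraries is 0.829. Naive replicate 4 had 89.3 CPM of Icos against 33.0 to 36.9 in the other naive libraries (ratio 0.887). Media replicate 4 had 229.7 CPM against 122 to 134 in the other media libraries (ratio 0.855). Both are libraries of the high run. For 6 genes in 3 groups, chance flags about 1 in 20 groups.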

How the results depend on the processing

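Across alternatives, 452 of 474 receptor results kept their direction and their side of the threshold, 10 gained and 7 lost the call, and 5 changed sign. Receptors called for lactate against media numbered 2 in the model used, 4 when the 2 groups were fitted alone, 4 with the donor as a replicate block and 0 in a test against a 2-fold change, and 2 to 3 when 1 library was left out. With the title number as a replicate block, Icos differed by log2 1.06 (adjusted p = 0.00148 from edgeR), and 3 receptors were called. The block by title number changed no call of a receptor against naive cells. The difference of Tnfrsf18 between lactate and media turned negative with the donor block (-0.075), with the library run as a term (-0.0046), and without media replicate 2 or lactate replicate 2 (-0.026 and -0.045), and ran to 0.20 over the fits without 1 library. That of Cd27 between media and naive cells ran from -0.22 to 0.0067, the latter without media replicate 3. Receptors called numbered 5 in every leave-one-out fit of media against naive cells and 5 to 6 for lactate against naive cells. In the test against a 2-fold change the 62 further genes gave 1 call instead of 20 for lactate against media, 13 instead of 34 for media against naive cells and 22 instead of 44 for lactate against naive cells. Leaving out 1 library gave 11 to 28 calls (12 without media replicate 2, 11 without lactate replicate 3 and 13 without lactate replicate 4), 30 to 42 and 41 to 51. Causes were not tested, other than that the 2-fold test asks for a larger change. In the model of 12 libraries, 4 a group, the 95% intervals for lactate against media ran from log2 -0.79 to 0.50 for Tnfrsf9 and from -0.47 to 0.61 for Tnfrsf18.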

Other observations

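The genes whose profiles over the 12 libraries were most like those of a receptor were found among 10312 genes, by the root mean square difference of centred log2 CPM (0 for the same profile). For Tnfrsf4 they were Ncs1 (0.294), Wnt10b (0.306) and Gls2 (0.318). For Tnfrsf18 they were Fdps (0.198), Glis2 (0.199) and Sqle (0.249), of which Fdps and Sqle code for enzymes of sterol synthesis. The nearest gene was Tg for Tnfrsf9 (0.351), Capg for Icos (0.303), Helb for Cd28 (0.157) and Irf2 for Cd27 (0.138). Over the 12 libraries the median difference from all these genes ran from 0.7735 for Cd27 to 2.99 for Tnfrsf9. These libraries share the contrast of naive with activated cells, so over the 8 activated libraries the nearest genes were others: Nudt2 for Tnfrsf9 (0.0425), Whrn for Tnfrsf18 (0.102), Marcksl1 for Icos (0.101), Depdc1a for Cd28 (0.0554) and Accs for Cd27 (0.0898). Among the receptors themselves, Cd28 and Cd27 were the closest pair over the activated libraries (0.175), followed by Tnfrsf9 and Tnfrsf18 (0.187), and Icos and Cd27 were the farthest apart (1.17). Profiles that change little are also close by this measure. Over the activated libraries the median difference from all genes was 0.311 for Tnfrsf9, 0.371 for Tnfrsf18, 0.539 for Cd28 and 0.645 for Cd27.

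Of 15 other genes in the table whose symbol begins with Tnfrsf, 10 were lower and 1, Tnfrsf8, was higher in media than in naive cells. Of all tested genes, 29% were called lower and 28.5% higher. Family members with other symbols were not counted here. The B cell, myeloid and NK cell markers were also lower, from at least 690, 1134 and 370 TPM in naive libraries to at most 30.4, 248 and 3.10 TPM in media, and their part was not tested. With lactate against media, Tnfrsf8, Tnfrsf25, Tnfrsf13b and Tnfrsf11b were called higher and Tnfrsf14 lower (13.9% and 11.1% of all tested genes). Tnfrsf13b (TACI) rose from 36.3 to 66.2 CPM (log2 0.87) and Tnfrsf25 (DR3) from 2.15 to 4.63 CPM (log2 1.10). Tnfrsf11b, which codes for the decoy receptor osteoprotegerin, had 3, 0, 1 and 2 counts in the media libraries and 83, 30, 146 and 117 counts in the lactate libraries. Naive libraries held 0 to 2 counts of it.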
